A study of Mus musculus with 44 samples.

Results

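The stretch described here is the chromatin on the higher-coordinate side of the Slc25a37 promoter, the side upstream of the gene, as seen from that promoter in mouse erythroid cells. Slc25a37 encodes mitoferrin-1, the carrier that brings iron into mitochondria for haem synthesis in maturing red cells. In Capture-C, chromatin is cross-linked, cut with DpnII at GATC and ligated, and junctions with 1 captured fragment, the viewpoint, are enriched with oligonucleotides and counted. A fragment that is often near the viewpoint in the nucleus gives many junctions, and in most loci counts fall steeply with distance. Promoters in this cell type commonly show raised contact with distal elements over that slope, and such raised stretches and the dips between them are the peaks and valleys described below. The counts alone do not say what lies in a peak, and they hold no gene expression from which the erythroid identity of the cells could be checked.

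Members were all restriction fragments listed on chromosome 14 within 100 kb above the viewpoint, between positions 69905816 and 70004876 of mm9. They number 246, of 308806 fragments listed for this viewpoint in the fixation table and 90020 in the low-input table. Together they cover 99.0 kb with 4 unlisted gaps of 38 bp in all, and they are 22 to 2173 bp long, with a median of 276.5 bp. The viewpoint itself and the ends next to it are unlisted (chr14:69902161-69904393). The fragment from 69904394 to 69905815, the nearest listed one, starts below the limit of the rule and is not a member. Every member had at least 1 count in the fixation series, and 4 had none in any low-input library. In the RefSeq order of GRCm38.p6, the genes that follow Slc25a37 on this side are the noncoding Gm27222, Gm31896 and Gm31748, then Synb, which encodes the placental fusion protein syncytin-B, and, past 2 further noncoding genes, Entpd4, which encodes a nucleotide phosphatase of the secretory pathway. That annotation is of another build than the counts, so no peak was placed in a gene, and no fragment sequence is printed.

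All libraries came from ter-119+ cells, selected with antibody-coated beads from spleens of phenylhydrazine-treated female C57BL/6 mice, a treatment that destroys red cells and fills the spleen with red cell precursors. In the fixation series, cells were fixed with 0%, 0.5%, 1%, 2%, 3%, 4% or 5% formaldehyde, with 2 technical replicates at each, and the unfixed cells were homogenised in water without the centrifugation step used for the others. In the low-input series, 3C material fixed with 2% formaldehyde was made into libraries by sonication (LI-Capture-C) or by tagmentation with a transposase (Tag-Capture-C) from 200, 100 or 50 ng, with 3 replicates of each of the 6 combinations. The study calls them triplicate aliquots in 1 place and, under its table of unique interactions, 3 biological replicates. The labels do not say whether these replicates came from separate animals, so p-values measure the spread between libraries, which may be technical.

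Fixation libraries held 18397 to 61802 interactions of this viewpoint and low-input libraries 1900 to 10761. The 100 kb held 29 and 43 interactions in the 0% libraries, 1512 to 10948 in the other fixation libraries and 356 to 2295 in the low-input libraries. Replicate 1 at 1% formaldehyde stood apart from its partner: 39.0% of its interactions were on chromosome 14 against 57.3% in replicate 2, while the 0.5% libraries had 31.9% and 26.8%. Results that rest on it are given without it too. The libraries at 0% to 2% and those at 3% to 5% carry sample names of 2 different forms. Whether this marks separate runs is not given, and the part of that division in the results was examined by within-set values where they could be had.

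The share of interactions that fell on this side varied over a wide range with formaldehyde. It was 0.0508% and 0.0900% of all interactions at 0%, 4.94% and 4.34% at 0.5%, 6.92% and 15.8% at 1%, 17.7% and 23.1% at 2%, 27.0% and 28.3% at 3%, 28.1% and 28.9% at 4%, and 29.9% and 30.8% at 5%. Replicates overlapped between no neighbouring concentrations up to 3%, and the steps above 3% were smaller than those below. The slope over the concentration means was 6.26 percentage points per percent formaldehyde (two-sided exact permutation test over all orders of the 7 concentrations, adjusted p = 0.00992 over 5 measures), and leaving out any 1 library gave 6.00 to 6.52. Within 0% to 2% it was 10.3 (adjusted p = 0.139) and within 3% to 5% it was 1.35 (adjusted p = 0.667), where 6 orders allow no p under 0.333.

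The side also took a growing share of the interactions on its own chromosome. It held 1.16% and 1.93% of them at 0%, 15.5% and 16.2% at 0.5%, 17.8% and 27.5% at 1%, 28.5% and 34.8% at 2%, and 40.2% and 41.1% at 5%. The slope was 7.11 points per percent (exact permutation test, adjusted p = 0.0134), and with the division into 2 sets as a term it was 7.88 (adjusted p = 0.0521).

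The higher-coordinate side was also set against the 221 fragments at the same distances below the viewpoint. The higher side had 0.892 and 1.03 times the count of the lower side at 0.5%, and 0.956 times in replicate 1 at 1%. Replicate 2 at 1% had 1.46 times, the 2% libraries 1.34 and 1.64, and the 6 libraries at 3% to 5% between 1.57 and 1.67. The 0% libraries, with 29 against 20 and 43 against 36 interactions, had ratios of 1.45 and 1.19, and those counts are too few to place them in the order. The log2 ratio rose by 0.123 per percent formaldehyde (exact permutation test, adjusted p = 0.0481). It was 0.105 without replicate 1 at 1% (adjusted p = 0.0513), 0.108 without replicate 2 at 0% (adjusted p = 0.0933), 0.140 without replicate 2 at 1% (0.0700), 0.121 without replicate 1 at 2% (0.0704), 0.123 without replicate 2 at 3% (0.0506) and 0.0951 with the division into 2 sets as a term (adjusted p = 0.486). Across the 18 low-input libraries the ratio was between 1.35 and 1.76, above 1 in every library.

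The share of the side that lay within 25 kb of the viewpoint was 41.4% and 51.2% at 0%, 45.2% and 51.1% at 0.5%, and 51.0% and 50.0% at 5%. Its slope, 0.776 points per percent (exact permutation test, adjusted p = 0.0481), did not pass without the 0% libraries, where it was 0.571 (adjusted p = 0.135). It also moved to 0.259 without replicate 1 at 0% (adjusted p = 0.427) and to 1.29 without replicate 2 at 0% (adjusted p = 0.0655), and the call was lost without either replicate at 1%, replicate 1 at 0.5%, 2% or 5%, or replicate 2 at 3%. The share in windows 4 and 8, which were chosen on these libraries, had a slope of 0.889, given with no test.

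**Figure D1:**
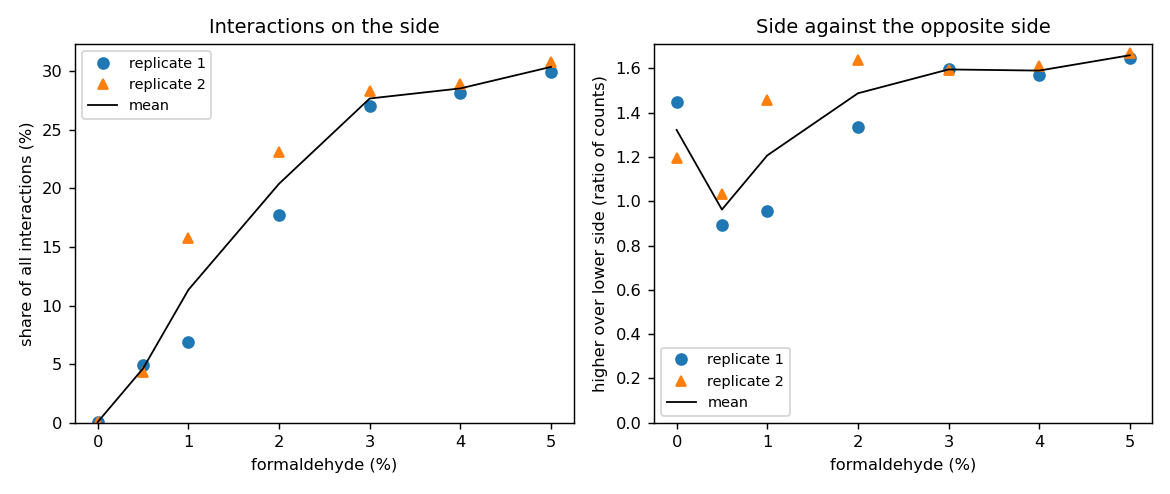
The left panel shows the percentage of all viewpoint interactions that fell on the higher-coordinate side and the right panel the count on this side over the count on the lower side, against percent formaldehyde; circles and triangles are the 2 technical replicates and the line joins their means. The share climbed from under 0.1% to 30.8%, and replicate 1 at 1% lay far below its partner in both panels.

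To describe shape, fragments were placed by midpoint in 20 windows of 5 kb, and the level of a window is its interactions per kb of listed fragments per 100000 interactions of the library. An expected level came from a straight line of log2 level on log2 distance over the windows of both sides, with a slope of -1.46. A peak had at least 1.5 times the expected level and a higher ratio of observed to expected level than both neighbours. A valley had at most 0.67 times the expected level and a lower ratio than both. On the mean of the 6 fixed concentrations these rules, which used the levels themselves, gave 2 peaks and 3 valleys, so the values that follow describe them and test nothing.

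The dominant feature of the side was a plateau of 2 windows about 34 and 39 kb from the viewpoint. Window 7 (chr14:69934535-69939526) had a mean level of 555 and window 8 (chr14:69939527-69944489), the peak by the rule, 548. These were 5.67 and 6.84 times the expected level, and 3.35 and 6.23 times the level at the same distances on the lower side. Either window was the higher of the pair in 6 of the 12 fixed libraries, so they are better read as 1 raised stretch of 10 kb than as a summit. The level fell to 202 in window 9, 131 in window 10 and 72.4 in window 11.

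The other peak, window 4 (chr14:69919953-69924291), lay 18.8 kb from the viewpoint, with a level of 469, or 2.05 times the expected. Window 3 beside it had 469.9, and window 4 exceeded window 3 in 5 of 12 fixed libraries, while it exceeded window 5 in all 12. In windows of 5 kb, the stretch of windows 3 and 4 is thus a shoulder of about equal levels that ends before window 5. With windows of 2.5 kb it was not even. There chr14:69916778-69919952 and chr14:69922307-69924291 were separate peaks, with levels of 492 and 581, or 1.64 and 2.90 times the expected. Windows 5 and 6, with 277 and 221, formed the dip between shoulder and plateau. They were still 1.67 and 1.78 times the expected level, so the dip was one between raised stretches and no valley by the rule. With windows of 2.5 kb the dip was not even either. The stretch chr14:69927900-69929206, inside window 5, was a peak with a level of 516, or 3.59 times the expected. Its fragments are 23 to 465 bp long, while window 5 also holds a fragment of 2173 bp. The level is per kb, and whether fragment length raised it was not tested.

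Of the valleys, window 13 (chr14:69964483-69969740), 63.8 kb out, had a level of 25.2, or 0.652 times the expected, and window 14 beside it rose again to 41.6. Window 19 (chr14:69994449-69999224) had 14.1, or 0.639 times. These outer valleys were less steady than the peaks. Taken by concentration, window 13 met the rule at 2% to 5% but not at 0.5% or 1%, and window 19 only at 2% and 5% among the fixed concentrations. Without the 2% or the 5% libraries window 20 took the place of window 19, and per restriction fragment neither window 13 nor window 19 met it. Window 1 (chr14:69905816-69909869), the nearest to the viewpoint, had the highest level of the side, 696, and met the rule for a valley at 0.385 times, with an expected level of 1808 that lay above the measured level of both sides (743 on the lower side). Against the lower side the order was mixed at both ends. Windows 4 and 7 to 12 were above it in 12 of 12 fixed libraries and window 14, at 1.74 times, in 11. Window 2, at 0.652 times, and window 20, at 0.529 times, were above it in none, window 1 in 4 and window 13 in 6.

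**Figure D2:**
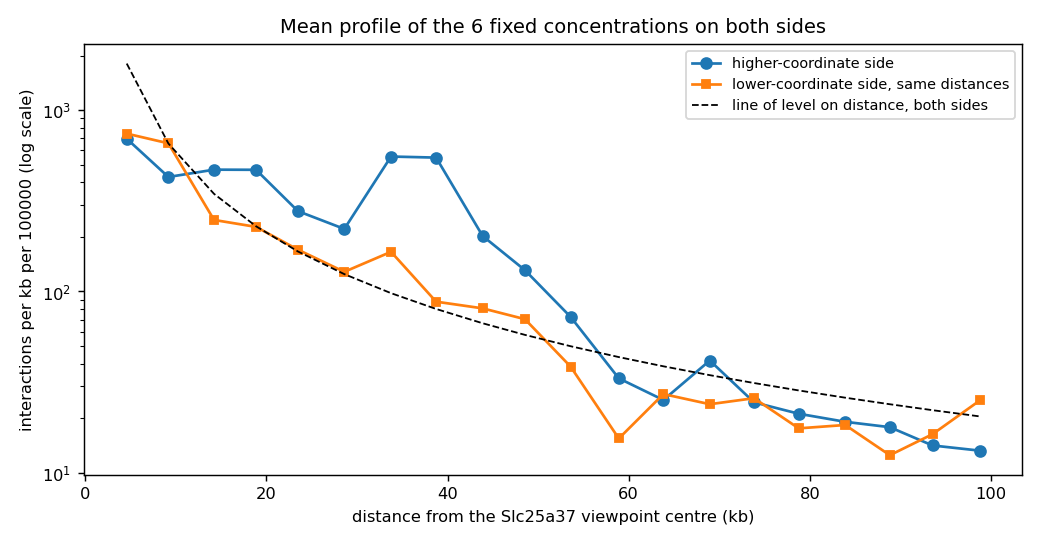
Interactions per kb per 100000 (log scale) are plotted against distance from the viewpoint centre in kb for the mean of the 6 fixed concentrations; circles are the 20 windows of the higher-coordinate side, squares the lower side at the same distances, and the dashed line the expected level. The plateau at 34 to 39 kb, with levels of 555 and 548, stands over lower-side levels of 166 and 87.9.

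The plateau held at every fixed concentration. The level of window 8 was 95.6 and 88.5 at 0.5% formaldehyde, 128 and 351 at 1%, 399.7 and 575 at 2%, 764 and 793 at 3%, 789 and 839 at 4%, and 818 and 930.1 at 5%. At 0% it was 1.76 and 2.53, from 5 and 6 interactions. Window 7 ran alongside, from a mean of 92.9 at 0.5% to 847 at 5%. In window 4 the levels were 99.8 and 106 at 0.5% and 728 and 733 at 5%, so that window 4 was above window 8 in both libraries at 0.5% and below it in all 6 at 3% to 5%.

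The dip was visible in each fixed library as well. Windows 7 and 8 together had 1.77 and 1.84 times the level of windows 5 and 6 at 0.5% formaldehyde, 1.47 and 1.81 at 1%, 1.82 and 2.21 at 2%, 2.25 and 2.49 at 3%, 2.48 and 2.37 at 4%, and 2.14 and 2.45 at 5%. Each of the 6 libraries at 3% to 5% lay above each of the 4 at 0.5% and 1%. This contrast was chosen after the profile was seen and carries no test. It is per kb, and the longest fragments are 2173 and 1505 bp in windows 5 and 6 against 807 and 907 bp in windows 7 and 8. It was not computed per fragment, and the part of fragment length in it was not tested.

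Windows 12 to 20 each rose by a smaller factor between 0.5% and 5% than windows 1 to 10. In windows 12 to 20 single levels ranged from 6.09 to 26.2 at 0.5% and from 11.9 to 62.9 at 5%, against a rise of window 8 from 92.0 to 874 in the mean. Window 14 rose the most of them, from a mean of 13.4 at 0.5% to 55.2 at 5%, and window 20 went from 7.23 to 14.9, while window 19 had 10.5 and 12.3. Their share of the side therefore fell, from 15.0% and 11.2% at 0.5% to 4.08% and 3.53% at 5%. It was 13.8% in replicate 1 at 1%, a value like those at 0.5%, and 5.79% in replicate 2.

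**Figure D3:**
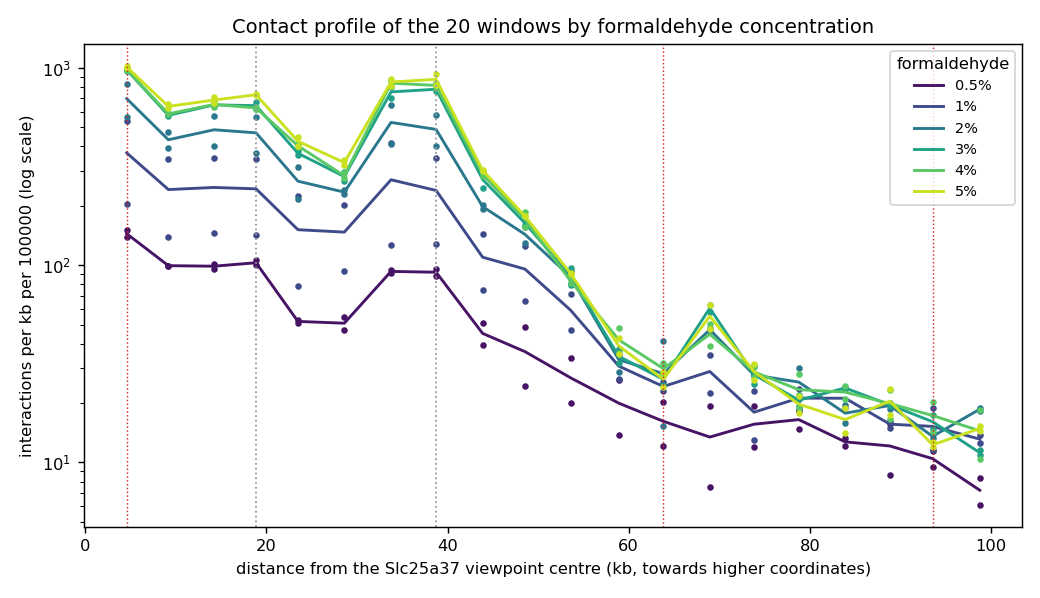
Levels of the 20 windows (interactions per kb per 100000, log scale) are plotted against distance from the viewpoint centre in kb for the 6 fixed concentrations; lines are means of 2 replicates, points single libraries, grey dotted lines the peaks and red dotted lines the valleys. Lines keep the shoulder and plateau at each concentration, are spread apart near the viewpoint and converge beyond 60 kb.

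Shifts within the local profile were tested with edgeR on interactions within 250 kb of the viewpoint as library size, replicates of a concentration summed, and a linear term in percent formaldehyde over 0.5% to 5%. A positive value means that a window gained share of the local interactions. Of 20 member windows, 17 changed at an adjusted p under 0.05, 8 upward and 9 downward, against 65.4% of all 217 windows tested. Upward calls made up 3.69% of the windows tested, and all 8 were among the members; downward calls made up 61.8%, so the 9 far members that fell did as most windows did.

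The windows that rose were 1 to 5 and 7 to 9, and those that fell were 11 to 13 and 15 to 20. Window 8 rose by 0.22 on the log2 scale per percent formaldehyde (SE 0.03; edgeR adjusted p = 5.26e-06) and window 7 by 0.19 (SE 0.04). Window 5, in the dip, rose by 0.14, window 4 by 0.12 and window 1 by 0.11. Window 6, at 0.04, did not pass the test (adjusted p = 0.372). Among the far windows, window 16 fell by 0.40, window 17 by 0.37, and the valley windows 13 and 19 fell by 0.32 and 0.38.

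Direction depended on the scaling. With TMM factors 11 member windows rose and 1 fell, and with all interactions of the viewpoint as library size 5 rose and none fell. These counts are not set against those over all windows. The median change of all windows tested was -0.28 with the local scaling, -0.05 with TMM and 0.13 with all interactions, so the falls of the far windows are falls relative to the near ones. With the division into 0% to 2% and 3% to 5% as a term, 0 of 20 member windows passed in edgeR, with 4 at an unadjusted p under 0.05. Replicates entered that fit singly and were not summed, so the loss of calls cannot be put down to the term alone. Windows 7 and 8 had values of 0.19 and 0.17 in that fit, with adjusted p of 0.298 and 0.292. Without replicate 1 at 1% formaldehyde 14 member windows passed, 5 upward and 9 downward.

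Single fragments showed a second ordering, by their length. Length did not enter the rule for members or the placing of fragments in windows, although window levels are per kb of fragment. Of 246 members 156 had a mean count of at least 10 and were tested; 44 rose and 20 fell per percent formaldehyde, against 41.5% of the 294 fragments tested in the whole table called in either direction, 18.7% upward and 22.8% downward. With all interactions as library size 105 members rose and none fell, a count given without the share over all fragments. The falls are thus falls in local share. The 44 that rose were 22 to 480 bp long, with a median of 170 bp. The 20 that fell were 338 to 2173 bp long, with a median of 849.5 bp.

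The ordering was seen in the 118 members within 50 kb, all of them tested, and among the 38 fragments tested beyond it. Within 50 kb of the viewpoint 21 of 36 tested fragments of up to 150 bp rose and none fell, 23 of 50 fragments of over 150 and up to 500 bp rose and none fell, and of 32 longer fragments none rose and 4 fell. Median changes in these classes were 0.26, 0.17 and -0.03. Over the plateau itself, windows 7 and 8, the medians were 0.33 for 12 short fragments, 0.21 for 11 intermediate and 0.06 for 7 long ones. Beyond window 10 they were 0.06 for 4 short, -0.11 for 14 intermediate and -0.39 for 18 long fragments. No fragment farther out than 80.4 kb reached the mean count of 10, although windows 19 and 20 have median fragment lengths of 127.5 and 140.5 bp. The far values thus describe the fragments that passed the count filter and do not test the ordering there. Across the 156 fragments the change correlated with length at a Spearman rho of -0.75, and at -0.79 within 50 kb. These fragments share libraries and neighbours and are not independent, and the correlation is given as a description.

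The named fragments illustrate this. The fragment chr14:69940742-69940929, 188 bp long in the plateau, had 17.7 and 14.4 interactions per 100000 at 0.5% formaldehyde and 370 and 349.8 at 5%, a change of 0.38 (SE 0.07; edgeR adjusted p = 0.00384). The fragments 69912605-69912855 and 69918645-69918785, 251 and 141 bp long, rose by 0.27 and 0.30. Among those that fell, 69964739-69965440, 702 bp long and in valley window 13, had 27.6 and 20.1 per 100000 at 0.5% and 18.9 and 24.4 at 5%, a change of -0.52 (SE 0.09; edgeR adjusted p = 0.00289). Between these ends its mean was 35.9 at 1%, 32.0 at 2%, 32.6 at 3% and 29.0 at 4%. It thus ended near where it began while the local total rose. The fragments 69953833-69955668 and 69982817-69984590, 1836 and 1774 bp long, changed by -0.40 and -0.64. With the division into 2 sets as a term and replicates not summed, none of the 124 members then tested passed in edgeR, with 17 at an unadjusted p under 0.05. Without replicate 1 at 2% formaldehyde 36 fragments were called in place of 64, and without replicate 1 at 1% formaldehyde 45.

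**Figure D4:**
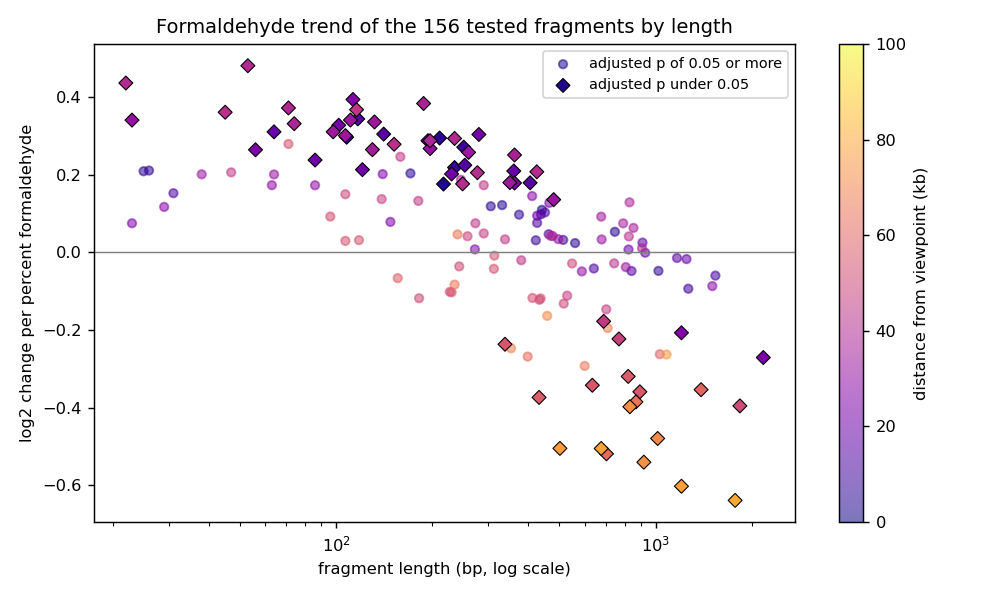
Each point is 1 of the 156 tested fragments of the side, with its length in bp (log scale) on the horizontal axis and its log2 change in local share per percent formaldehyde on the vertical axis; diamonds passed an adjusted p under 0.05 and colour gives distance from the viewpoint in kb. Diamonds above 0 lie at lengths of up to 480 bp and those below 0 at 338 bp and more.

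The same shift showed in plain shares of counts. Fragments of up to 150 bp, 36 of the 118 members within 50 kb and 6.28% of their bases, took 8.57% and 8.95% of the interactions there at 0.5% formaldehyde, 13.9% and 17.9% at 2%, and 17.2% to 19.4% in the 6 libraries at 3% to 5%. Fragments over 500 bp, 60.0% of the bases, took 52.4% and 52.0%, then 39.5% and 34.1%, then 32.0% to 33.8%. On the lower side short fragments went from 7.90% and 6.93% at 0.5% to between 17.6% and 19.9% at 3% to 5%, so the shift was not particular to the higher-coordinate side. In the low-input libraries short fragments held 10.2% to 17.5%, within the range of the libraries at 1% and 2% formaldehyde (8.70% to 17.9%).

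In counts per fragment, not per kb, the 5 highest members were 69906474-69907219, 69906257-69906473, 69907551-69908110 and 69907220-69907550 in window 1 and 69921057-69922306 in window 4, with means of 417, 412, 379.9, 356 and 357 interactions per 100000 over the fixed concentrations. The last of these is 1250 bp long and is the largest contributor to the shoulder. The highest fragment of the plateau, 69939527-69940379, had 345.

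Unfixed cells gave few interactions on this side. The 0% libraries had no count in 6 and 7 of the 20 windows. There 3 counts in a whole window would have been 5.25 and 6.28 per 100000, not divided by its length in kb. The highest level of any window was 5.16, which is per kb and so not on the scale of those floors. Relative to the local total, 0 of 20 windows differed between 0% and 0.5% in edgeR (0% of the 81 windows tested were called; 1 member at an unadjusted p under 0.05). For this contrast replicates were not summed, so its spread was that between technical replicates. With all interactions as library size 20 of 20 were lower at 0%. There 4.36% and 4.65% of all interactions were on chromosome 14, against 31.9% and 26.8% at 0.5%, so that count is not read as a result about this side. In the 0% libraries windows 7 and 8 held 9 and 8 interactions against 2 and 5 in windows 5 and 6, and window 8 had 4.17 times the level expected at 0%. A change in the shape of the profile was not detectable at this depth.

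The low-input libraries played no part in choosing the windows. They showed the same plateau, while the shoulder was not level as in the fixed mean. On their mean profile, windows 4 and 8 met the rule for peaks at 1.79 and 5.05 times the expected level. Window 8 had a level of 324 to 594 over the 18 libraries, with a median of 435, and exceeded windows 6 and 9 in all 18. Window 7 had 357 to 602, with a median of 445. Windows 7 and 8 had 1.32 to 2.18 times the level of windows 5 and 6, with a median of 1.72, where the 2% libraries of the fixation series had 1.82 and 2.21. Window 4 exceeded window 5 in 17 of 18 libraries, but window 3 in 3 and window 2 in 3. Among the fixed libraries it exceeded window 2 in 11 of 12. Mean levels of windows 2 to 5 were here 495, 515, 425 and 251, so window 4 lay on a falling slope before the drop to window 5.

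Of the valleys, window 1 met the rule in the low-input mean and windows 13 and 19 did not; window 17 (chr14:69984591-69989784) did, at 0.584. Beyond 60 kb single windows held few interactions: windows 12 to 20 together had 21 to 146 per library. There 3 counts in a whole window correspond to 27.9 to 158 per 100000, not divided by its length in kb as the levels are. At that depth valleys beyond 60 kb could not be told from their neighbours in single libraries.

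**Figure D5:**
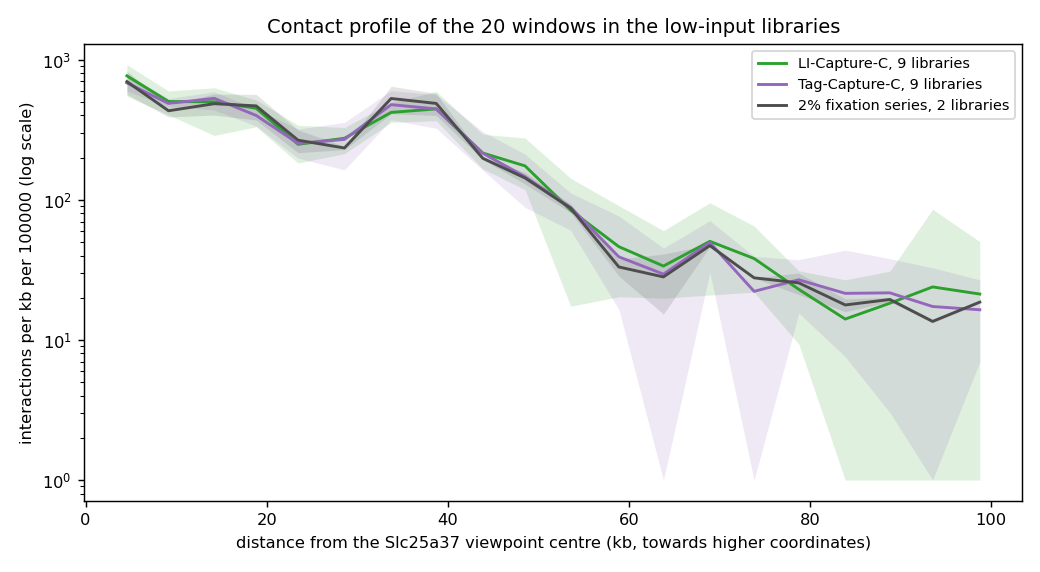
Levels of the 20 windows (interactions per kb per 100000, log scale) are plotted against distance from the viewpoint centre in kb for LI-Capture-C, Tag-Capture-C and the 2% libraries of the fixation series; lines are means and shading runs from the lowest to the highest library, drawn at 1 where the lowest had no count. The 3 lines all show the plateau, and the shading widens beyond 60 kb. In window 7 the mean of the 2% libraries was 529, against 413 to 430 in the LI-Capture-C groups.

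Sonication and tagmentation differed slightly in how much of the chromosome 14 signal lay on this side. The share was 31.3% to 32.8% with LI-Capture-C and 28.4% to 29.5% with Tag-Capture-C at 200 ng, 31.5% to 32.7% and 30.6% to 31.5% at 100 ng, and 30.9% to 32.5% and 29.3% to 30.5% at 50 ng. At each input the groups did not overlap. The mean difference was -1.85 percentage points for Tag-Capture-C (exact permutation test with labels exchanged within input, adjusted p = 0.00125 over 5 measures). The share of all interactions, the ratio of the sides, the share within 25 kb and the share in peak windows had differences of -0.43 points, -0.04 (log2), -1.33 points and -0.73 points, with adjusted p of 0.440, 0.442, 0.296 and 0.442.

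Within the local profile, edgeR called 2 of 12 member windows tested between the protocols, against 12.5% of all 24 tested (4.17% upward and 8.33% downward). Window 1, next to the viewpoint, was lower with Tag-Capture-C by a log2 change of -0.20 (SE 0.06) and window 7, in the plateau, was higher by 0.22 (SE 0.08), both at an adjusted p of 0.0431. Levels overlapped: window 7 had 357 to 495 with LI-Capture-C and 372 to 602 with Tag-Capture-C. Neither passed with the replicate number as a block (adjusted p = 0.0685), with windows of 10 kb or with a mean count of at least 5, and leaving out any 1 of 10 of the 18 libraries removed both. Of 36 member fragments, 1 was called, against 4.17% of 48: 69905816-69906256, the innermost member, was lower with Tag-Capture-C by -0.60 (SE 0.17; adjusted p = 0.0106), a call lost without LI-Capture-C replicate 2 at 100 ng (adjusted p = 0.0773).

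The amount of input left the profile of this side largely without detectable change. None of 12 member windows was called on log2 input in edgeR (0% of 24 tested), and of 36 fragments 1 was called, again against 4.17% of 48: 69906257-69906473 changed by -0.34 per doubling of input (SE 0.09; adjusted p = 0.0110). That call was lost without replicate 1 or 3 of Tag-Capture-C or replicate 2 of LI-Capture-C at 50 ng. No share or ratio passed over both protocols (permutation test, adjusted p of 0.156 or more). Within LI-Capture-C alone the share of all interactions rose by 1.34 percentage points per doubling (permutation test, adjusted p = 0.0417), from 18.7% to 19.6% at 50 ng to 21.3% to 22.5% at 200 ng, and LI-Capture-C libraries at 50 ng also had the lowest share on chromosome 14, 60.1% to 61.4% against 66.9% to 68.9% in all other low-input libraries.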

How the data were processed

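Counts were deposited as raw numbers of unique interactions per DpnII fragment for each library and viewpoint. Per the submitters' processing notes and the study's methods, the authors trimmed reads with Trim Galore and aligned them with Bowtie to mm9 (versions not given in the sources used here), and removed read sets with identical ends, in low-input data also those differing by 1 or 2 positions. Fragments were used as listed in the 2 Slc25a37 tables; 5 tables of other viewpoints were not used. Libraries made from counted cells were not analysed here.

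Members, windows and tests were chosen with earlier results of these data known. Windows were 5 kb. Shares and slopes were tested by permutation with Python 3.11.15 and NumPy 2.4.6, technical replicates of the fixation series being averaged per concentration. The permutations were exact, except that slopes on input over both protocols used 100000 random draws. Rank correlations came from SciPy 1.17.1. Counts were tested with edgeR 4.0.16 in R 4.3.3 (quasi-likelihood, interactions within 250 kb as library size, mean count of at least 10, Benjamini-Hochberg over all features tested); DESeq2 1.42.0, TMM factors, other filters and libraries left out were alternatives. The edgeR steps for the trend on formaldehyde, the protocols and the trend on input were tested on simulated data. Named were all peak and valley windows, called windows if 6 or fewer and otherwise the 3 of smallest adjusted p in each direction, the 5 highest fragments, and per fragment test the 3 of smallest adjusted p in each direction; fragment length and the contrast of windows 7 and 8 with 5 and 6 were added after the values were seen. Intervals were not computed; floors of 3 counts cover counting error only.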

Additional observations from a re-analysis of the deposited data

Results flagged for a closer look

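The difference between protocols in the share of all interactions on this side was not the same at each input. At 200 ng Tag-Capture-C less LI-Capture-C was -2.04 percentage points (19.5% to 19.9% against 21.3% to 22.5%), and at 50 ng it was 1.05 points (19.9% to 20.4% against 18.7% to 19.6%), with no overlap in either case. The difference at 200 ng less that at 50 ng was -3.09 points (exact permutation test over 400 exchanges of labels within input, p = 0.00500, adjusted p = 0.0250 over 5 measures). For the share of interactions on chromosome 14 the same contrast was -1.13 points (exact permutation test, adjusted p = 0.610).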

How the results depend on the processing

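Slopes on formaldehyde are given in the order share of all interactions, share of chromosome 14, log2 ratio of the sides, share within 25 kb and share in peak windows. Within 0% to 2% they were 10.3, 14.2, 0.156, 2.01 and -0.132, and within 3% to 5% they were 1.35, 0.933, 0.0284, -0.300 and 0.336, so the share within 25 kb and the share in peak windows each changed sign in 1 set; none of these passed. With the division into these sets as a term the share of all interactions passed at 6.03, and the next 3, at 7.88, 0.0951 and 0.908, did not. Without the 0% libraries the share within 25 kb was 0.571 and no longer passed, while the share in peak windows was 1.28; with the division as a term as well the first 4 were 4.65, 4.39, 0.166 and 0.488 and none passed. Without the 0% libraries and replicate 1 at 1%, the share within 25 kb was 0.307, not passing, and the share in peak windows 1.15; this setting and the previous one were chosen after seeing the data. Leaving out 1 library gave 0.105 to 0.140 for the ratio, 0.259 to 1.29 for the share within 25 kb and 0.719 to 1.06 for peak windows. The peak windows were chosen on these libraries, so no test is read from their slope. The cause of these changes was not tested.

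Of the differences between protocols, the share of chromosome 14 was -2.78, -1.12 and -1.64 at 200, 100 and 50 ng, where 3 libraries against 3 allow no p under 0.10. Signs turned at 50 ng for the share of all interactions (1.05), the ratio (4.85e-05) and the share within 25 kb (0.947), and at 100 ng for peak windows (0.464). On log2 input, the share of all interactions was 1.34 in LI-Capture-C alone, where it passed, and -0.205 in Tag-Capture-C alone; the share of chromosome 14 turned to 0.141 in LI-Capture-C and the share within 25 kb to -0.643 in Tag-Capture-C. Leaving out 1 library gave -0.258 to 0.00388 for the share of chromosome 14 and -0.294 to 0.295 for the share within 25 kb.

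Windows called on formaldehyde, 17 with the settings used, were 5 with all interactions as library size, 10 with DESeq2, 0 with the division as a term and 9 of 10 with 10-kb windows, and 14 to 18 with 1 library left out. Fragments, 64 with the settings used, were 105, all upward, with all interactions as library size, 24 with no filter, 0 with the division as a term, and 36 to 70 with 1 library left out. The edgeR fits with the division as a term also took replicates singly, not summed. With all interactions as library size, windows 13, 16, 17 and 19 turned to 0.104, 0.0301, 0.0653 and 0.0592 and the fragment 69953833-69955668 to 0.0247. Between protocols, 1 window was called with TMM factors, all interactions or DESeq2 and 0 with a mean count of at least 5, no filter, a replicate block or 10-kb windows, and 0 to 2 with 1 library left out; fragments numbered 0 with DESeq2, a mean count of at least 5 or no filter, and 0 to 2 with 1 library left out. On input, fragments numbered 0 with TMM factors or no filter, and 0 to 1 with 1 library left out. Between 0% and 0.5%, 20 windows were called with all interactions as library size, a count not read as a result about this side. Peaks and valleys numbered 12 with 2.5-kb windows and 3 with 10-kb windows in place of 5.

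Libraries of the same number had correlated deviations of -0.0859 to 0.483 in the fixation series and -0.433 to 0.630 in the low-input series, so the number was not taken to pair them, although the side's share of chromosome 14 was higher in replicate 2 at 7 of 7 concentrations. With the replicate number as a block, windows called on formaldehyde were 17 and fragments 63, in fits where replicates were not summed. The difference between protocols in the share of chromosome 14 passed at -1.85 (exact permutation test, adjusted p = 0.0195). Windows called between protocols were 0 with the block, and no call on a share or ratio of the low-input series changed. For shares and ratios on formaldehyde, replicates were averaged per concentration after the block was taken out. The block could therefore not change those p-values, and they say nothing about pairing.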
